A study of Mus musculus with 12 samples.

Results

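Invariant natural killer T (iNKT) cells of the mouse thymus fall into iNKT1, iNKT2 and iNKT17 subsets. The regions described here were those of open chromatin that were closed, or much less accessible, in iNKT1 cells and open in both other subsets of C57BL/6 mice. They were chosen by their ATAC-seq values in the 6 C57BL/6 libraries. In a selected region, the lowest of the 4 iNKT2 and iNKT17 libraries was at least 1.585 above the higher of the 2 iNKT1 libraries on the log2 scale, which is 3-fold. That lowest value was also at least 2.32, which is 5 normalized insertions per kilobase. The rule found 1042 of 63309 regions, or 1.65%. All values of C57BL/6 cells, and all differences between genotypes that use them, are therefore given as descriptions with no test. Tests were made only among the 6 Hivep3-/- libraries, which the rule did not use.

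iNKT cells are T cells that express a semi-invariant T cell receptor, are selected by CD1d on other thymocytes and depend on the transcription factor PLZF. iNKT1 cells depend on T-bet and resemble Th1 and natural killer cells. iNKT2 cells carry high PLZF and GATA3 and make IL-4, and iNKT17 cells depend on RORγt and make IL-17. ATAC-seq reads open chromatin through a transposase that inserts adapters where DNA is free of nucleosomes. A region shut in a single subset can mark a regulatory element that the other subsets share, such as an enhancer that is also used by their precursors. HIVEP3 is a large zinc finger protein that acts as a transcription factor and as an adapter protein, and the study asked how its loss changes the chromatin of each subset.

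Libraries came from thymic iNKT1, iNKT2 and iNKT17 cells of untreated C57BL/6 mice and of Hivep3-/- mice backcrossed to C57BL/6, all 8 to 9 weeks old, with 2 libraries per subset and genotype and 12 in all. The methods describe no cell-type limit to the Hivep3 loss, and no other engineered allele or agent for these libraries. The C57BL/6 mice were bought and the Hivep3-/- mice came from another investigator. Other differences between the 2 lines therefore cannot be told apart from the loss of Hivep3. The first sort took CD122+ ICOS- cells as iNKT1, CD122- ICOS+ Izumo1r+ CD138- cells as iNKT2 and CD122- ICOS+ Izumo1r- CD138+ cells as iNKT17. The sorted subsets were then mixed, transposed together and separated again by ICOS and CD138 alone, because the other markers were lost in the reaction. The methods describe pooled thymi and the sample titles number single mice, so p-values measure the spread between 2 libraries of a group, which may be partly technical. In a sorted population, a few cells of another subset and a low accessibility in each cell cannot be told apart.

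The library labels were checked on the promoters of subset genes. The mean promoter value of 12 iNKT1 genes, such as Tbx21 and Ifng, was 5.54 to 5.62 in the 4 iNKT1 libraries and 2.10 to 3.41 in the 8 others. For 10 iNKT17 genes it was 4.93 to 5.10 in iNKT17 and 1.10 to 1.68 elsewhere. For 12 iNKT2 genes the range was 5.34 to 5.70 in iNKT2 and 4.55 to 4.97 elsewhere. Among double-positive thymocyte genes, 1 of 6 had a promoter region, Cd4. Its value was 3.37 and 3.22 in C57BL/6 iNKT1 and 1.51 and 1.25 in Hivep3-/- iNKT1. In iNKT2 it was 4.36 and 3.94 in C57BL/6 and 4.15 and 3.52 in Hivep3-/- cells. In iNKT17 it was 1.46 and 2.13, then 0.19 and 1.11. Cd4 is also 1 of the 12 iNKT2 genes, so it cannot tell double-positive thymocytes from iNKT2 cells. For B cells, 2 of 6 genes had promoter regions. Their means were 2.84 to 3.27 in the 4 iNKT1 libraries and 3.52 to 3.96 in the 8 others, so they were lower in iNKT1, like the selected regions. For myeloid cells 3 of 6 genes had promoter regions, with means of 4.57 to 5.14 across the 12 libraries. The part of other cells in the results below was not tested. The 21 regions in the Hivep3 gene body had differences between Hivep3-/- and C57BL/6 cells of -0.21 to 0.88 as means over the subsets, so accessibility gave no check of the deletion. The depth of the libraries is unknown, since normalization fixes their sums. As a stand-in, the distinct values in the lower 50% of a library were counted, since deeper libraries hold finer steps, and they numbered 73 to 491. Among the iNKT1 libraries it was 139 and 170 in C57BL/6 and 227 and 491 in Hivep3-/-.

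The reference sequences of 6 selected regions show what these elements look like. They are the central 300 bases of each region on GRCm38.p6 (mm10), plus strand, and capitals mark matches to short transcription factor motifs on either strand. The region near Maf (chr8:115742651-115742950) and that near Cd83 (chr13:43768973-43769272) are among the 8 with the largest gap between C57BL/6 iNKT1 cells and the others. The region far from its nearest protein-coding start, that of Mtx2 (chr2:75119683-75119982), had the largest gap in Hivep3-/- cells. The Rora intron (chr9:69227243-69227542) and the region upstream of Mtss1 (chr15:59092450-59092749) kept their gap in Hivep3-/- cells, and the region near Nfkbiz (chr16:55766724-55767023) lost it.
Maf distal region: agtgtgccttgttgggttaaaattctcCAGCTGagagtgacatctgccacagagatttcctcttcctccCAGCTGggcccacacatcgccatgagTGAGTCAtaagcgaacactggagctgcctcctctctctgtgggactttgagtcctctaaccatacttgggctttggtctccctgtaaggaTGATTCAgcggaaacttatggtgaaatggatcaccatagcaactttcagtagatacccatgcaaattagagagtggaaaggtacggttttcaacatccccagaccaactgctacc
Cd83 distal region: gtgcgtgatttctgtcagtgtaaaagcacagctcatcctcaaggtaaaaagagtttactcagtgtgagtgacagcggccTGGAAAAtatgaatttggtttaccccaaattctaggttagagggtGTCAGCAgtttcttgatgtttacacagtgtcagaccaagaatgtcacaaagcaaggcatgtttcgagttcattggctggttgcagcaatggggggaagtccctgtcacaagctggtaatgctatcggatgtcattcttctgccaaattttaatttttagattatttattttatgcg
Mtx2 distal region: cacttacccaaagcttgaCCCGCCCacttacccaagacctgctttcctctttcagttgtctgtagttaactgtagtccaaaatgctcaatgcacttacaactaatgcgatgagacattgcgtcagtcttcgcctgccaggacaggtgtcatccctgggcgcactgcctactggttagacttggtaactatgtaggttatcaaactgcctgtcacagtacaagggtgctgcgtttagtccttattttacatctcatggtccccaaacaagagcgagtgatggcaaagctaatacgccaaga
Rora intronic region: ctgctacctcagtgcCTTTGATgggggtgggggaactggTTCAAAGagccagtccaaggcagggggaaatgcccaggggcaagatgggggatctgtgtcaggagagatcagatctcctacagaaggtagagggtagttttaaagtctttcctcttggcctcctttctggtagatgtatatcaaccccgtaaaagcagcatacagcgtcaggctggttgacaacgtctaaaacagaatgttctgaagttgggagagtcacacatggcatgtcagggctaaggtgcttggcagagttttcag
Mtss1 upstream region: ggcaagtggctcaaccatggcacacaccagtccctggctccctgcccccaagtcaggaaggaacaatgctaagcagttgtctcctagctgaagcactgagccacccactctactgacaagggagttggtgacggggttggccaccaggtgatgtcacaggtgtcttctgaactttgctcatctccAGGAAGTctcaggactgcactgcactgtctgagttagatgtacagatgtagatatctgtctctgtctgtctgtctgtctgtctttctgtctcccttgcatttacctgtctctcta
Nfkbiz distal region: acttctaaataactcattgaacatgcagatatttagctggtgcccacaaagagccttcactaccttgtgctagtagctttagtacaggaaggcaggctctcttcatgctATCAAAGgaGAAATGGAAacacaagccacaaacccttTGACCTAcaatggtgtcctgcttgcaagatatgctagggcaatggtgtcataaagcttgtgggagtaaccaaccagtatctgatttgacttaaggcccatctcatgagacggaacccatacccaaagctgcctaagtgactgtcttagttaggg
The Maf sequence holds 2 matches to an E-box (CAGCTG) and 2 to the AP-1 motif (TGANTCA). The Cd83 sequence holds 1 NFAT match (TTTTCCA) and 1 MAF match (TGCTGAC), and the Mtx2 sequence holds 1 KLF/SP match (GGGCGGG). The Rora sequence holds 1 match to each of the TCF/LEF letters searched, TTCAAAG and ATCAAAG, and the Mtss1 sequence 1 ETS match (AGGAAGT). The Nfkbiz sequence holds 1 ATCAAAG, 1 IRF match (GAAANNGAA) and 1 ROR match (TAGGTCA). Such letters are common, and the E-box was in 27.1% of all regions, the IRF letters in 15.3%, the KLF/SP letters in 20.1% and the NFAT letters in 10.1%. A match is a description of the letters and not a bound site.

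By the rule, the selected regions were low in C57BL/6 iNKT1 cells, with medians of 1.28 and 1.44 in the 2 libraries (log2 insertions per kilobase). The medians were 4.10 and 4.15 in iNKT2 and 4.38 and 4.33 in iNKT17. On the linear scale these were 2.43 and 2.72 insertions per kilobase in iNKT1, 17.1 and 17.7 in iNKT2 and 20.8 and 20.1 in iNKT17. Closed was a relative term for part of them. Both C57BL/6 iNKT1 libraries were below the level of 2.32 in 750 regions (72.0%), and both were at or above it in 214 (20.5%). In the Hivep3-/- libraries the medians were 1.69 and 1.78 in iNKT1, 4.20 and 4.13 in iNKT2 and 4.09 and 4.10 in iNKT17. The median over all regions was 3.90 in each of the 12 libraries, so the selected regions were near a typical region in iNKT2 and iNKT17 cells and far below one in iNKT1 cells.

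**Figure D1:**
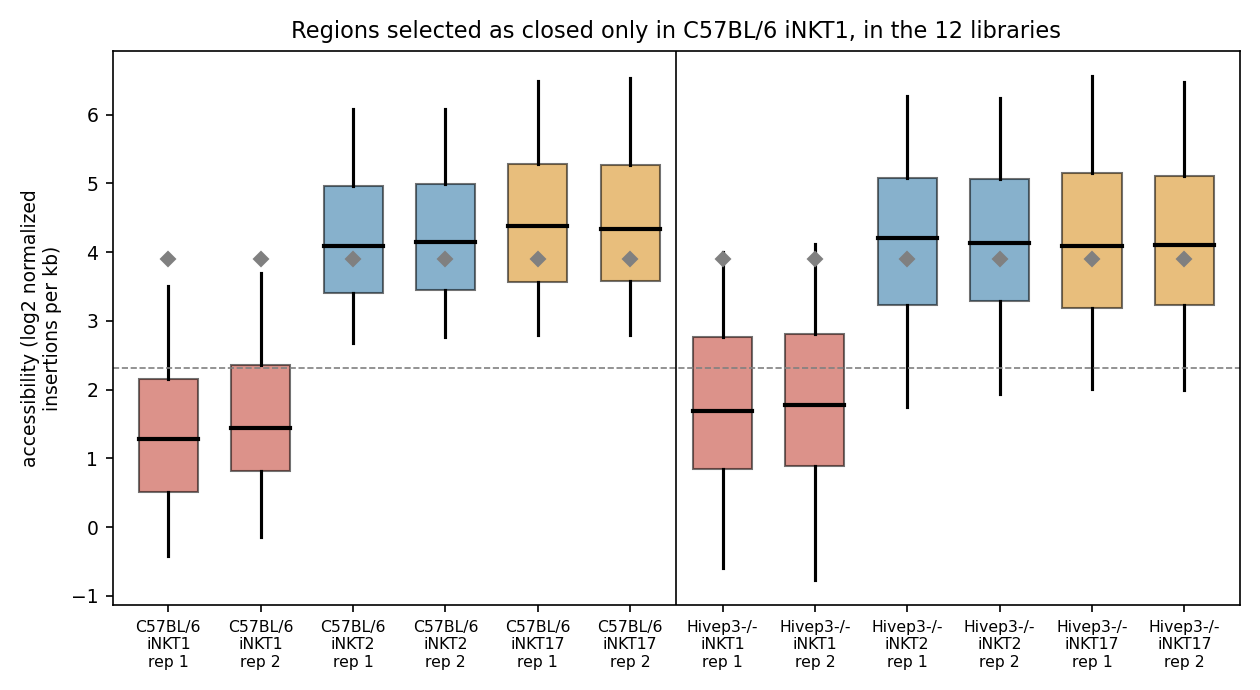
Accessibility of the 1042 selected regions in each of the 12 libraries (y axis, log2 normalized insertions per kilobase). Boxes span the quartiles with the median as a thick line, whiskers reach the 5th and 95th percentiles, grey diamonds are the medians of all 63309 regions and the dashed line is the level of 2.32. The iNKT1 medians are 1.28 and 1.44 in C57BL/6 and 1.69 and 1.78 in Hivep3-/- cells, and those of the other subsets lie between 4.09 and 4.38.

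Most of these regions were also less accessible in iNKT1 cells of the Hivep3-/- mice. Calls came from limma and needed a 3-fold change or more and a Benjamini-Hochberg adjusted p below 0.1, adjusted over all 63309 regions. Hivep3-/- iNKT1 cells were called lower than iNKT2 cells in 801 selected regions (76.9%), beside 9.01% of all regions. They were called lower than iNKT17 cells in 753 (72.3%), beside 9.85% of all regions. Against both subsets, 661 were called (63.4%, 95% Wilson interval 60.5 to 66.3%), beside 3.7% of all regions. A further 140 were called against iNKT2 only, 92 against iNKT17 only, and 149 (14.3%) against neither. Over the 750 regions below the level in both C57BL/6 iNKT1 libraries, a subset chosen after the values were seen, 484 (64.5%) were called against both. With 5 added before the logarithm, which shrinks differences at low values, 202 of the 661 calls against both were left. The share of all regions called against both in that setting was not counted.

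The size of the difference followed the calls. The median log2 difference in Hivep3-/- cells was 2.34 between iNKT2 and iNKT1 (quartiles 1.67 and 3.00) and 2.27 between iNKT17 and iNKT1 (1.48 and 3.17). Over all regions the medians were 0.02 and -0.02. The estimate was above 0 in 1014 selected regions against iNKT2 and in 1019 against iNKT17. Both Hivep3-/- iNKT1 libraries lay below the 4 others in 957 regions (91.8%), beside 22.8% of all regions. In the opposite direction, 2 selected regions were called higher in Hivep3-/- iNKT1 than in iNKT2 cells, beside 8.76% of all regions, and 0 were called higher than in iNKT17 cells, beside 9.69%.

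The same rule applied to the Hivep3-/- columns found 1001 regions, or 1.58% of all. Of the 1042 regions of C57BL/6 cells, 495 (47.5%) met it in Hivep3-/- cells, and these were 49.5% of the 1001. The rule also lost regions between replicates of C57BL/6 cells. Of 1848 regions chosen on C57BL/6 replicate 1 alone, 64.6% met the rule in replicate 2, and 44.4% and 42.9% met it in the 2 Hivep3-/- replicates. Of 1554 chosen on replicate 2 alone, 76.8% met it in replicate 1, and 48.6% and 48.3% in the Hivep3-/- replicates. This comparison was chosen after the values were seen. For the regions open only in C57BL/6 iNKT1 cells, chosen by the reverse of the rule, 1698 of 2194 (77.4%) met their rule in Hivep3-/- cells. The share was 62.3% for regions closed only in iNKT2, 30.0% for those closed only in iNKT17, 45.7% for those open only in iNKT2 and 77.6% for those open only in iNKT17.

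The gap, defined as the lowest value of the other subsets minus the highest iNKT1 value, had a median of 2.06 in C57BL/6 and 1.61 in Hivep3-/- cells. Each side of the gap moved a little. Mean values of Hivep3-/- minus C57BL/6 had a median of 0.36 in iNKT1 cells, where 660 regions (63.3%) were higher in Hivep3-/- cells. The median was 0.00 in iNKT2 and -0.23 in iNKT17 cells, where 277 regions (26.6%) were higher in Hivep3-/- cells. Over all regions these medians were -0.02, 0.00 and -0.01. Because the rule took regions with low iNKT1 values in C57BL/6, the iNKT1 value is not a free measurement. With regions chosen on 1 C57BL/6 replicate and the difference taken from the other, the iNKT1 median was 0.17 and 0.35, and the iNKT17 median was -0.20 in both cases.

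The groups of calls differed in all 3 subsets, most in iNKT1. For regions called against both subsets, the iNKT1 medians were 1.35 in C57BL/6 and 1.38 in Hivep3-/- cells, with a median difference between genotypes of -0.04. Regions called against 1 subset had a median difference in iNKT1 of 0.72, and those called against neither had 1.22, where Hivep3-/- iNKT1 cells had a median of 2.53 beside 3.44 for both iNKT2 and iNKT17. The median difference in iNKT2 was 0.11 in regions called against both, -0.15 in those called against 1 and -0.39 in those called against neither, and in iNKT17 it was -0.18, -0.31 and -0.36. The calls used the same Hivep3-/- values, so this split is a description. Both Hivep3-/- iNKT1 libraries were at or above the level of 2.32 in 353 selected regions (33.9%), and all 4 other Hivep3-/- libraries were in 840 (80.6%).

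**Figure D2:**
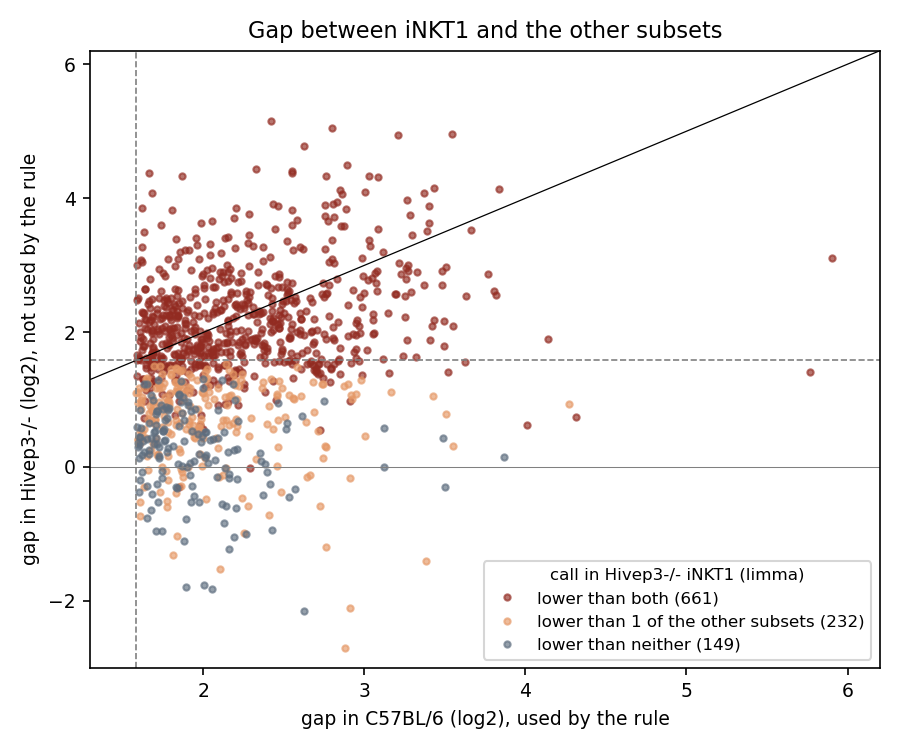
Gap between the iNKT1 libraries and the lowest of the 4 other libraries in C57BL/6 (x axis, log2) and in Hivep3-/- cells (y axis, log2), with 1 point per selected region coloured by the limma call in Hivep3-/- cells. The solid line marks equal gaps and dashed lines the margin of 1.585. The 661 regions called against both subsets reach a gap of 5.15 in Hivep3-/- cells, and the 149 called against neither lie mostly under the margin.

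The region with the largest gap in C57BL/6 cells was intergenic, 369 kb from the start of Csnk1g3, a casein kinase gene (chr18:54300559-54301058). C57BL/6 values were -3.12 and -2.39 in iNKT1, 3.52 and 3.62 in iNKT2 and 4.71 and 4.66 in iNKT17. Hivep3-/- values were -0.996 and -0.972 in iNKT1, 2.14 and 2.83 in iNKT2 and 4.39 and 4.13 in iNKT17. The subsets did not overlap in either genotype, and in Hivep3-/- cells iNKT2 exceeded iNKT1 by 3.47 ± 0.34 (log2 difference ± SE, adjusted p = 5.86e-05) and iNKT17 by 5.25 ± 0.34 (adjusted p = 5.87e-06). The call against iNKT2 was lost with 5 added to the linear values.

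The second largest gap was 35.0 kb from the start of Maf, which encodes the bZIP factor c-MAF used by IL-17-producing T cells (chr8:115742551-115743050, intergenic). Both C57BL/6 iNKT1 libraries were at -3.12 and -3.79, each the lowest value of its library, and iNKT2 was at 2.65 and 2.98 and iNKT17 at 2.72 and 3.04. In Hivep3-/- cells iNKT1 was at -1.35 and -3.12, iNKT17 at 2.24 and 2.21, and iNKT2 at 0.06 and 0.35. The iNKT2 side was thus low in Hivep3-/- cells, though the groups still did not overlap. iNKT17 exceeded iNKT1 by 4.46 ± 0.67 (adjusted p = 0.000575) and iNKT2 by 2.44 ± 0.67 (adjusted p = 0.0149), and the call against iNKT2 was lost without Hivep3-/- iNKT1 replicate 2. It was also lost with 1 added to the linear values, and with 5 added both calls were lost.

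The region 15.7 kb from the start of Cd83, a surface protein of the immunoglobulin family that acts in CD4 T cell development, kept its gap (chr13:43768873-43769372, intergenic). iNKT1 was at 0.36 and 0.20 in C57BL/6 and at -0.10 and 0.44 in Hivep3-/- cells. iNKT2 was at 4.20 and 4.30, then 4.58 and 4.91, and iNKT17 at 5.29 and 5.43, then 5.19 and 5.33. All iNKT1 libraries lay over 3 log2 units below the others. In Hivep3-/- cells the difference was 4.57 ± 0.24 against iNKT2 (adjusted p = 4.91e-06) and 5.09 ± 0.24 against iNKT17 (adjusted p = 1.71e-06).

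The other regions among the 8 largest gaps differed in how they behaved in Hivep3-/- cells. The region 20.4 kb from Rps6ka5, a stress-activated kinase gene, was called against both subsets, but its iNKT1 values were -0.94 and 0.20 in C57BL/6 and 2.41 and 2.46 in Hivep3-/- cells (chr12:100747123-100747622). The Ccdc192 intron (chr18:57708336-57708835) was called against both, with differences of 2.40 ± 0.78 and 4.19 ± 0.78, and lost the call against iNKT2 without Hivep3-/- iNKT1 replicate 2 or iNKT2 replicate 2. The intron of Ptpn13, a tyrosine phosphatase gene (chr5:103442081-103442580), was called against both, and the call against iNKT17 was lost without Hivep3-/- iNKT1 replicate 2 or iNKT17 replicate 2. The Fam163a intron (chr1:156107345-156107844) was called against iNKT2 only, with a difference of 1.00 ± 0.36 from iNKT17. With 5 added to the linear values, Rps6ka5 lost its call against iNKT17 and Fam163a its call against iNKT2. The regions of Ccdc192 and Ptpn13 then lost both calls.

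The Snx31 intron was called against neither subset (chr15:36521300-36521799). Snx31 encodes a sorting nexin, a protein of endosomal traffic. Its iNKT1 values were -0.94 and -1.65 in C57BL/6 and 1.88 and 1.66 in Hivep3-/- cells. The Hivep3-/- iNKT2 values were 3.57 and 2.35 and those of iNKT17 were 2.01 and 2.28, so all 4 stayed above iNKT1. The iNKT2 replicates were far apart, and all but iNKT2 replicate 1 were close to iNKT1. The difference was 1.19 ± 0.40 against iNKT2 (adjusted p = 0.0339) and 0.38 ± 0.40 against iNKT17 (adjusted p = 0.475), and without Hivep3-/- iNKT2 replicate 2 the region was called against iNKT2.

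The largest gap in Hivep3-/- cells was on chromosome 2, 251 kb from the nearest protein-coding start, that of the mitochondrial import gene Mtx2 (chr2:75119583-75120082, intergenic). iNKT1 was at 1.02 and 0.71 in C57BL/6 and at -3.12 and -3.79 in Hivep3-/- cells. iNKT2 was at 3.49 and 3.44, then 2.09 and 2.03, and iNKT17 at 6.15 and 6.09, then 5.52 and 5.56. Every Hivep3-/- library lay below its C57BL/6 counterparts, and the order of the subsets was the same in both genotypes. The Hivep3-/- difference was 5.51 ± 0.38 from iNKT2 (adjusted p = 1.15e-05) and 9.00 ± 0.38 from iNKT17 (adjusted p = 1.1e-06), and iNKT1 was near the lowest values of its libraries. The call against iNKT2 was lost with 5 added to the linear values, and also when only regions averaging 5 insertions per kilobase in a compared group were tested.

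That region was 1 of 8 selected regions within 129 kb (chr2:75019432-75148384), where 20 regions were measured in all. The cluster was singled out after the values were seen. All 8 were called lower in Hivep3-/- iNKT1 cells against both subsets, with gaps of 2.52 to 5.15. Over the 8, the iNKT1 medians were 1.89 and 2.03 in C57BL/6 cells and -0.03 and 0.19 in Hivep3-/- cells. The iNKT2 medians were 4.80 and 4.59 in C57BL/6 and 3.72 and 3.61 in Hivep3-/- cells, and those of iNKT17 were 5.62 and 5.64, then 5.20 and 5.05. All 8 lay 151 to 279 kb from the start of Mtx2, with no nearer protein-coding start.

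The other large gaps in Hivep3-/- cells lay in the Ntrk3 and Tgm3 introns and near Hlf. Ntrk3 encodes a neurotrophin receptor, and its region (chr7:78216822-78217321) was at 2.33 and 1.90 in C57BL/6 iNKT1 and at -3.12 and -1.59 in Hivep3-/- iNKT1, with differences of 6.72 ± 0.47 from iNKT2 and 5.99 ± 0.47 from iNKT17. Hlf encodes a bZIP factor of early blood progenitors, and the region 73.3 kb from its start (chr11:90463968-90464467) was at 0.81 and 1.07 in C57BL/6 iNKT1 and -2.39 and 0.24 in Hivep3-/- iNKT1. There, iNKT17 was at 7.17 and 7.17 in C57BL/6 and at 7.29 and 7.12 in Hivep3-/- cells, far above iNKT2 at 3.69 and 3.98, then 5.01 and 5.19. All these regions were called against both subsets.

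At the other end, 5 regions had the smallest gaps in Hivep3-/- cells, and in each at least 1 library of the other subsets fell below an iNKT1 library. Near Tesc, which encodes a calcium-binding protein (chr5:118010770-118011269, intergenic), C57BL/6 values were -0.42 and -0.41 in iNKT1, 2.47 and 2.89 in iNKT2 and 3.10 and 3.00 in iNKT17. In Hivep3-/- cells iNKT1 was at -1.35 and -1.72, iNKT2 at -3.79 and -4.05 and iNKT17 at -0.10 and 1.57. The 6 Hivep3-/- libraries were all below the level of 2.32, so the region was closed in each subset of these mice. The call against iNKT17 remained (2.27 ± 0.99, adjusted p = 0.09), but it was lost without either Hivep3-/- iNKT1 library, without iNKT17 replicate 2 and with 1 or 5 added to the linear values. The iNKT2 value was called below iNKT1 (-2.39 ± 0.99, adjusted p = 0.0751), at the lowest values of the iNKT2 libraries.

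Near Nfkbiz, which encodes the inducible IκBζ (chr16:55766624-55767123, 51.6 kb from the start), the iNKT2 side was lost. The iNKT17 side was lower than in C57BL/6 cells but stayed above iNKT1. C57BL/6 values were -0.42 and -0.67 in iNKT1, 2.70 and 2.49 in iNKT2 and 4.38 and 4.15 in iNKT17. Hivep3-/- values were 0.88 and 0.12 in iNKT1, -1.22 and -0.22 in iNKT2 and 2.88 and 2.66 in iNKT17. iNKT17 exceeded iNKT1 by 2.26 ± 0.50 (adjusted p = 0.00518) and iNKT2 by 3.49 ± 0.50 (adjusted p = 0.000608), while iNKT2 lay below iNKT1 by less than 3-fold (-1.22 ± 0.50, adjusted p = 0.0737). With 5 added to the linear values, the call against iNKT17 was lost.

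In an intron of Rapgef1, which encodes an exchange factor for the small GTPase Rap1 (chr2:29689408-29689907), the iNKT2 and iNKT1 values changed places. C57BL/6 values were 1.73 and 2.03 in iNKT1, 4.50 and 4.70 in iNKT2 and 4.29 and 3.92 in iNKT17. Hivep3-/- values were 3.62 and 3.89 in iNKT1, 2.09 and 2.23 in iNKT2 and 3.58 and 3.10 in iNKT17. Both Hivep3-/- iNKT1 libraries lay above the 4 others. iNKT2 was below iNKT1 (-1.59 ± 0.25, adjusted p = 0.000717), and the difference of iNKT17 from iNKT1 did not pass the test (-0.42 ± 0.25, adjusted p = 0.200). This and the Tesc region were the 2 called higher in iNKT1 than in iNKT2 cells.

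Of the regions near Foxo1 and Pmp2, neither was called against any subset. The region 104 kb from Foxo1, a transcription factor of resting T cells (chr3:52371618-52372117), was at -0.11 and 0.49 in C57BL/6 iNKT1 and at 1.96 and 2.06 in Hivep3-/- iNKT1. The Hivep3-/- values were 2.30 and 2.74 in iNKT2, and 1.59 and -0.10 in iNKT17, where the 2 replicates were far apart. The region 32.1 kb from Pmp2 (chr3:10151590-10152089) had Hivep3-/- values of 2.01 and 2.61 in iNKT1 beside 0.78 and 2.39 in iNKT2 and 2.39 and 2.14 in iNKT17, with overlapping groups.

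Lists of iNKT and T cell genes were used to place the regions at known loci, counting a gene's body and 10 kb on either side. Altogether, 17 selected regions lay at genes of these lists, at 15 genes. None of the 85 regions at the 12 iNKT1 marker genes, which include Tbx21, Il2rb and Ifng, was selected. With 50 kb on either side, 2 of 214 were, at Nkg7. At the 12 iNKT2 marker genes, 2 of 209 regions were selected, at Zbtb16 and Ccr4, and 46 of the 209 (22.0%) were called lower in Hivep3-/- iNKT1 cells than in both subsets. At the 12 iNKT17 marker genes 3 of 111 were selected, at Il1r1 and Blk, and 21 (18.9%) were called. At 20 transcription factor genes that act in iNKT2 or iNKT17 cells, 7 of 448 regions were selected, and 43 (9.60%) were called. The lists share genes, so their counts are not separate. Zbtb16 is on this list too and gave 26 of the 43. At 25 genes of costimulation and T cell receptor signalling, 4 of 445 were selected and 15 (3.37%) called, 9 of them at Icos, also an iNKT2 marker. At 26 cytokine and chemokine receptor genes 2 of 280 were selected and 24 (8.57%) called. Most of these 24 were at genes also on the marker lists, with 9 at Il1r1, 5 at Il6ra, 4 at Il17rb, 2 at Ccr4 and 1 at Il17re. At 21 genes of stage 0 and immature thymocytes 1 of 250 was selected and 1 called, and at 20 NF-κB and AP-1 genes 1 of 174 was selected and 2 called. No region was selected of 139 at 8 Hivep family and study genes, though 1 of 162 was with 50 kb on either side, at Hdac7. None was selected at the genes of B cells (20 regions), myeloid cells (16) or double-positive thymocytes (13), where few regions were measured. For comparison, 1.65% of all regions were selected and 3.7% were called.

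Zbtb16 encodes PLZF, the factor that sets the innate program of iNKT cells. Of 86 regions at this gene 26 were called lower in Hivep3-/- iNKT1 cells than in both subsets, and 1 was selected, in an intron (chr9:48680996-48681495). It was at 1.77 and 1.44 in C57BL/6 iNKT1 and at -0.01 and -0.12 in Hivep3-/- iNKT1. iNKT2 was at 4.93 and 4.70, then 4.55 and 4.05, and iNKT17 at 3.69 and 3.78, then 3.22 and 3.38. The subsets kept the order iNKT2, iNKT17, iNKT1 in both genotypes, and the Hivep3-/- difference was 4.37 ± 0.27 from iNKT2 (adjusted p = 8.2e-06) and 3.37 ± 0.27 from iNKT17 (adjusted p = 1.88e-05).

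Rora encodes a nuclear receptor of IL-17-producing and type 2 innate lymphocytes, and an intron of it held 2 adjacent selected regions, both called against both subsets. The region with the larger gap (chr9:69227143-69227642) was at 1.49 and 1.60 in C57BL/6 iNKT1 and at 0.40 and 0.74 in Hivep3-/- iNKT1. iNKT2 was at 4.76 and 4.61, then 4.90 and 4.83, and iNKT17 at 5.91 and 5.92, then 5.57 and 5.60. The replicates lay close together and the subsets were well apart, with differences of 4.29 ± 0.19 from iNKT2 (adjusted p = 3.14e-06) and 5.01 ± 0.19 from iNKT17 (adjusted p = 8.27e-07). The Runx1 intron (chr16:92761811-92762310), at a gene for a core factor of T cell development, had iNKT1 values of 2.81 and 2.92 in C57BL/6 and 1.33 and 1.54 in Hivep3-/- cells, with all other libraries between 4.84 and 5.76.

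Ikzf3, which encodes Aiolos, and Irf4, a factor induced by T cell receptor signals, were also called against both subsets. The Ikzf3 region lay 105 bp from a start site (chr11:98488666-98489165) and was at 1.77 and 2.03 in C57BL/6 iNKT1 and 1.04 and 0.18 in Hivep3-/- iNKT1. In Hivep3-/- cells iNKT2 was higher by 2.77 ± 0.33 and iNKT17 by 4.36 ± 0.33. The Irf4 region, 2.96 kb from the start (chr13:30746019-30746518), was at 1.56 and 1.66 in Hivep3-/- iNKT1, 3.35 and 3.56 in iNKT2 and 4.62 and 4.52 in iNKT17. The region in an exon of Bach2, a repressor of effector programs (chr4:32560202-32560701), was called against iNKT2 only, with a difference of 1.24 ± 0.16 from iNKT17 that was under 3-fold.

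Receptor genes gave a mixed picture. Ccr4, a chemokine receptor of type 2 cells, had a region 14.9 kb from its start (chr9:114480855-114481354) with iNKT1 at 0.92 and 1.34 in C57BL/6 and at 1.28 and 0.79 in Hivep3-/- cells, called against both. It stood among 8 selected regions within 179 kb that spanned Ccr4, Cnot10 and Glb1, 6 of them called against both. In that stretch 32 regions were measured in all, and it was singled out after the values were seen. The region in an exon of Il1r1, which encodes the IL-1 receptor (chr1:40315399-40315898), was at 1.11 and 1.28 in C57BL/6 iNKT1 and at 0.94 and 2.09 in Hivep3-/- iNKT1, with the other Hivep3-/- libraries between 4.41 and 4.88, and was called against both.

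Blk, a Src family kinase gene used in IL-17-producing T cells, held 2 selected regions that parted in Hivep3-/- cells. The region 12.8 kb from the start (chr14:63388939-63389438) was at 0.81 and 0.82 in C57BL/6 iNKT1, 3.30 and 3.57 in iNKT2 and 5.38 and 5.44 in iNKT17. In Hivep3-/- cells it was at 0.57 and -0.39 in iNKT1, at 0.20 and 0.66 in iNKT2 and at 4.98 and 5.04 in iNKT17. iNKT1 and iNKT2 overlapped there (0.34 ± 0.39, adjusted p = 0.506), and iNKT17 stood above both. The other Blk region, 7.14 kb from the start, had a Hivep3-/- gap of 2.83 and was called against both subsets.

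Among genes of T cell receptor signalling, Cd247, which encodes the CD3ζ chain, had an exonic region 2.18 kb from a start site (chr1:165866583-165867082), in a stretch that also overlaps Pou2f1. iNKT1 was at -0.11 and 0.20 in C57BL/6 and at 1.49 and 1.75 in Hivep3-/- cells. iNKT2 was at 4.37 and 4.47, then 4.93 and 5.17, and iNKT17 at 4.01 and 4.70, then 4.37 and 5.01. The iNKT1 libraries stayed below all others in both genotypes, by 3.43 ± 0.24 from iNKT2 (adjusted p = 1.36e-05) and 3.07 ± 0.24 from iNKT17 (adjusted p = 1.65e-05) in Hivep3-/- cells. Ubash3b, a phosphatase that dampens receptor signals, had an intronic region called against both, with differences of 3.10 ± 0.23 and 2.48 ± 0.23 (chr9:41138974-41139473).

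The regions at Ctla4 and Fyn were called against iNKT2 only. Ctla4 encodes an inhibitory receptor, and its region 4.01 kb from the start (chr1:60882745-60883244) was at 1.82 and 1.39 in C57BL/6 iNKT1 and at 2.61 and 2.51 in Hivep3-/- iNKT1, beside 3.35 and 3.13 in Hivep3-/- iNKT17 and 4.47 and 4.83 in iNKT2. Fyn encodes the kinase that acts behind SLAM receptors in iNKT cell selection, and its intronic region (chr10:39430320-39430819) had Hivep3-/- values of 1.63 and 1.48 in iNKT1, 3.14 and 3.29 in iNKT2 and 2.19 and 2.34 in iNKT17. In both regions iNKT17 stood between the others.

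Ikzf2 and Nfkb1 had regions called against neither subset, in different ways. Nfkb1 encodes the p105 and p50 subunit of NF-κB, and its region 1.80 kb from a start site (chr3:135665751-135666250) was open everywhere. It was at 4.24 and 4.23 in C57BL/6 iNKT1 and at 5.97 and 6.10 in Hivep3-/- iNKT1, where all other libraries of both genotypes were between 5.85 and 6.47. The Ikzf2 intron (chr1:69544160-69544659), at the gene for Helios, was at 1.20 and 0.06 in C57BL/6 iNKT1 and at 1.76 and 1.38 in Hivep3-/- iNKT1. There the iNKT2 values were 3.58 and 3.94 in C57BL/6 and 1.79 and 2.15 in Hivep3-/- cells. Without Hivep3-/- iNKT1 replicate 1 the Ikzf2 region was called against iNKT17. With only 1 added to the linear values, the call against iNKT17 was lost at Ccr4, that against iNKT2 at Irf4 and the call at Fyn. With 5 added, the call against iNKT17 was also lost at Zbtb16 and Ubash3b, that against iNKT2 at Ikzf3 and the call at Ctla4.

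**Figure D3:**
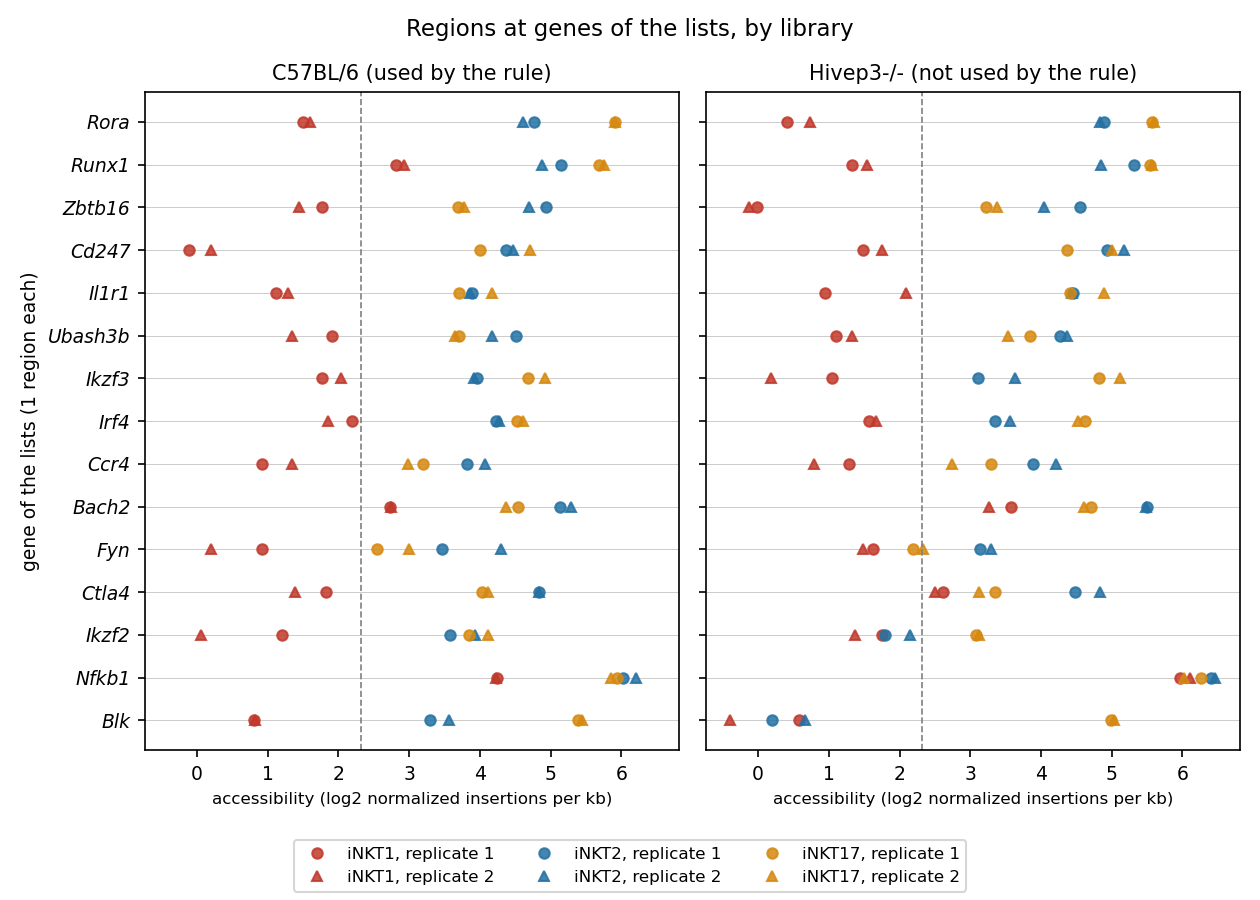
Accessibility (x axis, log2 normalized insertions per kilobase) of the selected region with the largest C57BL/6 gap at each of 15 list genes (y axis), in C57BL/6 on the left and Hivep3-/- cells on the right. Circles are replicate 1 and triangles replicate 2, colours are subsets, the dashed line is the level of 2.32 and genes are ordered by the gap in Hivep3-/- cells. Hivep3-/- iNKT1 is far below the others at Rora, and at Nfkb1 it has moved to 5.97 and 6.10, beside the other subsets.

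Selected regions were spread over many genes. Within 100 kb, 917 of them had their nearest protein-coding start at 722 genes, and 588 of these genes had 1 region, 134 had 2 or more and 38 had 3 or more. Another selected region was the adjacent region within 10 kb for 172 (16.5%), beside 1.61% of all regions with a selected region as neighbour. Joined at 10 kb, they formed 917 runs, of which 22 held 3 or more and the longest held 5.

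Mtss1, which encodes a protein that bends membranes and binds actin, had the most, with 9 of the 22 regions nearest to its start within 100 kb. Of these 9, 8 were called lower in Hivep3-/- iNKT1 cells than in both subsets, and 2 of the 13 other regions were. They lay within 95.8 kb, at 0.365 to 29.7 kb from the nearest of several start sites. For iNKT1 the medians over the 9 were 1.11 and 1.50 in C57BL/6 cells, 1.76 and 1.91 in Hivep3-/- cells, and the 8 other libraries had medians of 4.15 to 4.69. The largest C57BL/6 gap was 10.6 kb from a start (chr15:59092350-59092849), where iNKT1 was at 1.43 and 2.78 in C57BL/6, where the replicates were far apart, and at 3.10 and 3.28 in Hivep3-/- cells. The other subsets were between 5.52 and 6.39 there, and the Hivep3-/- difference was 3.16 ± 0.13 from iNKT2 (adjusted p = 2.73e-06) and 2.72 ± 0.13 from iNKT17 (adjusted p = 1.65e-06). At 2 promoter regions of Mtss1, Hivep3-/- iNKT1 was at 1.63 and 1.78, and at 2.65 and 2.65.

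Tgm3, a transglutaminase gene, had 4 selected regions, all called against both subsets, and 9 of its 10 other regions were called too. In the intronic region 28.0 kb from the start (chr2:130040125-130040624), iNKT1 was at 0.51 and -0.14 in C57BL/6 and at -3.12 and -1.38 in Hivep3-/- cells, and iNKT17 was at 6.39 and 6.12 in both genotypes. iNKT2 was at 4.06 and 4.24, then 3.59 and 4.28. In the region 22.2 kb from the start (chr2:130034276-130034775), Hivep3-/- iNKT1 was at -4.05 and -2.43, the lowest value of the first library, and the other Hivep3-/- libraries were between 2.52 and 3.61. With 5 added to the linear values, this region was called against neither subset. At Plcb4, a phospholipase C gene, 5 of 23 regions were selected, all called, and 10 of the other 18 were called too. The Plcb4 region with the largest C57BL/6 gap, 1.73 kb from a start (chr2:135885712-135886211), was at 0.64 and 0.70 in Hivep3-/- iNKT1, and the other subsets were between 4.29 and 4.55.

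**Figure D4:**
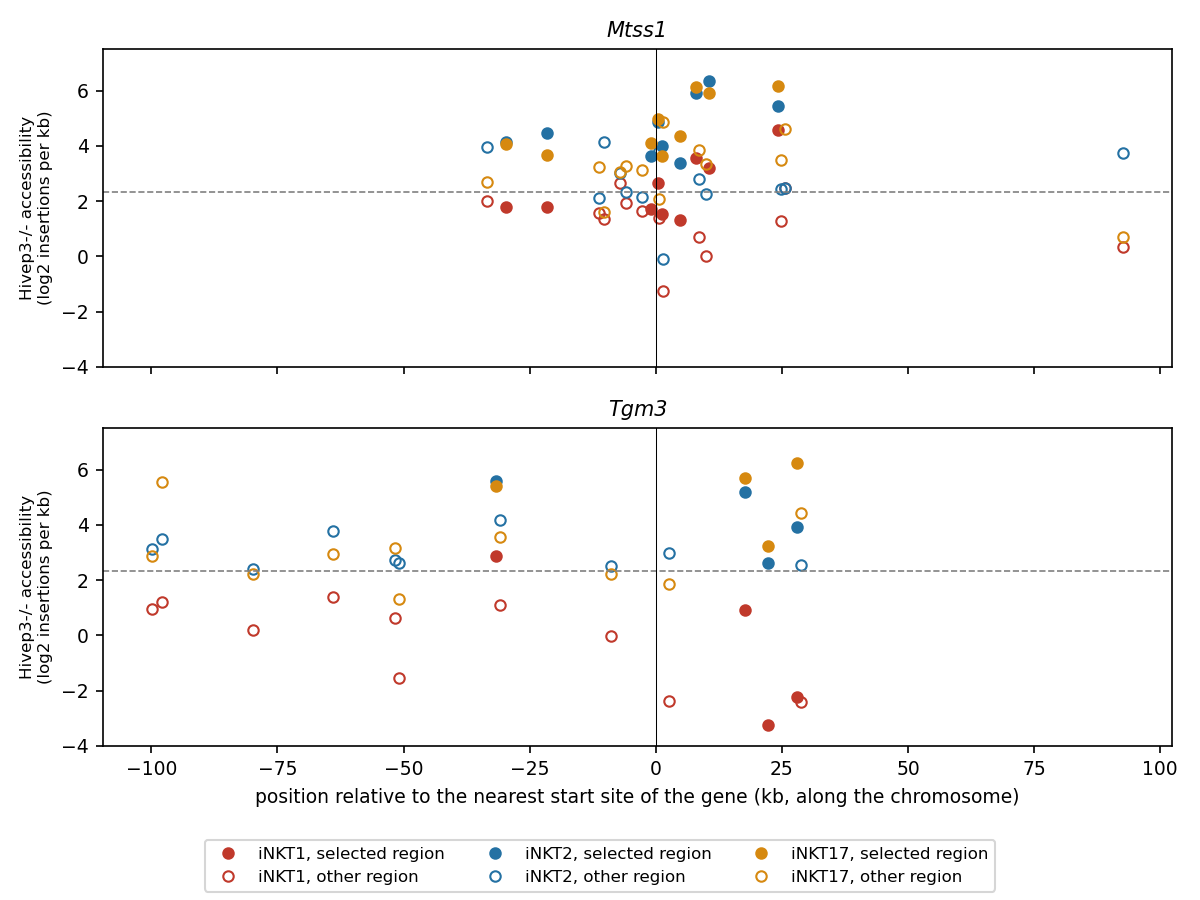
Mean accessibility in the 3 Hivep3-/- subsets (y axis, log2 insertions per kilobase, mean of 2 libraries) of every region whose nearest start within 100 kb is that of Mtss1 (top, 22 regions) or Tgm3 (bottom, 14 regions), by position from the nearest start site along the chromosome (x axis, kb). Filled points are selected regions, open points the others, and the dashed line is the level of 2.32. The red iNKT1 points lie below the blue and orange ones in the 9 and 4 selected regions.

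At the other genes among the 8 with most selected regions, part of the selected regions were called. Arhgap24, which encodes a GTPase-activating protein for Rac, had 5 of 11 regions selected and 4 called, among them 1 that lay in a Mapk10 intron (chr5:102930192-102930691), with differences of 3.87 ± 0.22 and 4.88 ± 0.22. Etv6, a repressor of the ETS family, had 5 of 24 selected and 3 called, and Cd83 had 4 of 17 selected and 3 called. Nav2, a gene of cell migration, had 5 of 37 selected and 2 called. Its region 4.59 kb from a start (chr7:49251185-49251684) was called, with Hivep3-/- iNKT1 at 0.40 and -0.04 and iNKT2 at 2.03 and 3.19. With 5 added to the linear values, the call against iNKT2 was lost there and at the Etv6 region with the largest C57BL/6 gap. Kcnk10, a potassium channel gene, had 5 of its 6 regions selected and 2 called against both. Its region with the largest gap (chr12:98453189-98453688) was called against both with Hivep3-/- iNKT1 at -0.01 and 0.00, and the call against iNKT2 was lost without iNKT2 replicate 1. With 5 added to the linear values, both calls of this region were lost. Of the regions not selected, 8 of 19 were called against both at Etv6, 2 of 13 at Cd83 and 4 of 32 at Nav2. At Arhgap24 it was 1 of 6 and at Kcnk10 0 of 1.

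The rule did not ask whether the open subsets differed from each other. In Hivep3-/- cells 62 were called higher in iNKT2 than in iNKT17 (5.95%), beside 7.86% of all regions, and 109 were called higher in iNKT17 (10.5%), beside 8.27%. The 95% Wilson intervals were 4.67 to 7.55% and 8.75 to 12.5%, so the first share lay a little below the share of all regions and the second a little above it. The median difference of iNKT2 minus iNKT17 was 0.07, with quartiles of -0.68 and 0.73. At a 2-fold threshold 161 and 184 were called. The shares of all regions at that threshold were not counted, so these counts have no background. The largest differences, named after the values were seen, were at genes other than those of the lists. In the Coro2b intron (chr9:62507394-62507893) iNKT17 was at 6.49 and 6.35 and iNKT2 at 0.51 and 1.02 in Hivep3-/- cells, with iNKT2 at 3.72 and 3.43 in C57BL/6. In an exon of Stab2 (chr10:86990597-86991096) iNKT17 was at 5.83 and 5.83 and iNKT2 at -0.13 and 0.84, after 3.29 and 2.98 in C57BL/6. In the other direction, the Car8 intron (chr4:8217043-8217542) was at 4.69 and 4.55 in iNKT2 and at 0.99 and 1.11 in iNKT17, after 2.44 and 2.49 in C57BL/6 iNKT17. Hivep3-/- iNKT1 was at -0.59 and -0.24 at Coro2b, at 1.28 and 1.12 at Stab2 and at -0.01 and 0.00 at Car8. At Stab2 the iNKT2 libraries were thus below both iNKT1 libraries, and at the others the weaker of the open subsets stayed above iNKT1.

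The selected regions lay outside promoters more often than a typical region. Of the 1042, 123 (11.8%, 95% Wilson interval 9.98 to 13.9%) were within 1000 bp of a start site, beside 34.0% of all regions. Introns held 47.4% (beside 37.1%), intergenic DNA 35.7% (beside 24.7%) and exons 5.09% (beside 4.18%). Other sets chosen by rules of the same form had like shares at promoters, 11.7% of 960 regions closed only in iNKT17, 8.21% of 329 closed only in iNKT2 and 9.25% of 2194 open only in iNKT1. The median distance to a start site was 10684 bp, beside 3963 bp over all regions. GC content had a median of 47.4%, beside 50% over all regions, and outside promoters it was 47% beside 47.8%. The share called against both subsets in Hivep3-/- cells was 60.2% at promoters, 60.4% in exons, 63.8% in introns and 64.5% between genes. The X chromosome held 6 selected regions, which was 0.524% of its regions, and the other chromosomes had between 1.21% and 2.37% of theirs.

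Sequence was not used by the rule, so motif content is a separate readout. Letters were searched on both strands of the whole 500-bp regions, and the intervals are 95% Wilson intervals over regions that are not independent of each other. TCF1 and LEF1, factors of thymocyte and early iNKT development, bind letters such as TTCAAAG, and ATCAAAG is a variant of them. The first form was in 20.9% of the selected regions (18.6 to 23.5%), beside 11.2% of all regions, and the variant in 18.2% (16 to 20.7%), beside 7.99%. The forms differ at their first base, so 1 position on a strand matches at most 1 of them. At least 1 of them was in 371 selected regions (35.6%, 32.8 to 38.6%), beside 18.1% of all regions. The share was 15.2% in regions closed only in iNKT2, 21.7% in those closed only in iNKT17 and 16.3% in those open only in iNKT1. Among the selected regions it was 33.3% of the 661 called in Hivep3-/- cells against both subsets, 38.4% of the 232 called against 1 and 41.6% of the 149 called against neither, with intervals of 29.8 to 37.0% and 34.0 to 49.6%.

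The T-box letters AGGTGTGA, bound by T-bet, the factor that defines iNKT1 cells, were in 2.02% of the selected regions (1.32 to 3.06%). That interval holds the 2.91% of all regions, and the share was 3.95% in regions closed only in iNKT2. They were in 12.5% of the regions open only in iNKT1 and in 12.3% of those closed only in iNKT17. The AP-1 letters TGANTCA were in 23.9% of selected regions beside 15.9%, the GATA letters AGATAAG in 10.6% beside 6.19% and their variant TGATAAG in 5.18% (3.99 to 6.70%) beside 4.13%, the MAF letters TGCTGAC in 12.4% beside 8.64%, and the ROR letters TAGGTCA in 7.97% beside 5.45%. The MAF and AP-1 letters can overlap. In regions closed only in iNKT2 the shares were 23.4% for AP-1, 4.56% for AGATAAG, 11.2% for MAF and 10.6% for ROR. In those closed only in iNKT17 they were 17.4%, 10.1%, 10.3% and 4.06% in the same order. In those open only in iNKT1 they were 20.3%, 7.57%, 8.93% and 4.47%. Each of these letters thus had a like or higher share in another set. The ETS letters AGGAAGT were in 18%, beside 21.3% of all regions and 30.1% of those open only in iNKT1, and the Runx letters AACCACA in 23.9%, beside 17.4% and 28.2%. Outside promoters, TTCAAAG was in 22.5% of 919 selected regions beside 13.2% of all, and ATCAAAG in 19.0% beside 9.74%. There AGGTGTGA was in 1.85% (1.16 to 2.94%) beside 3.46%, and TGATAAG in 5.44% beside 5.08%. The AP-1 letters were in 25.8% beside 19.2%, AGATAAG in 11.0% beside 7.44%, the MAF letters in 12.7% beside 9.78% and the ROR letters in 8.38% beside 6.57%.

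**Figure D5:**
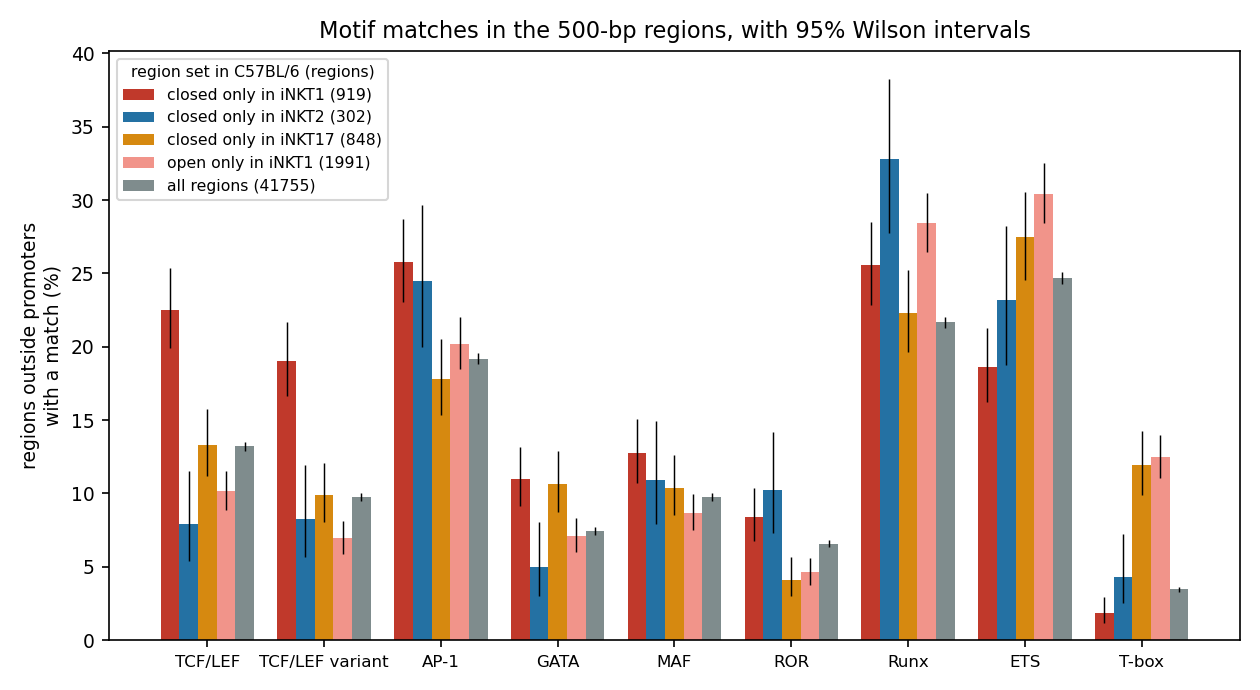
Share of regions outside promoters with a match to each motif (y axis, %), for the selected regions (919) and for regions closed only in iNKT2 (302), closed only in iNKT17 (848), open only in iNKT1 (1991) and all regions (41755). Bars start at 0 and lines are 95% Wilson intervals. The red bars of the selected regions stand at 22.5% and 19.0% for the 2 TCF/LEF motifs and at 1.85% for the T-box motif.

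Just inside the margin were regions near Tpra1 (chr6:88939423-88939922), in the Itga9 intron (chr9:118821545-118822044) and in the Notch2 intron (chr3:98029823-98030322), each with a C57BL/6 gap of 1.59. Just outside it were regions at Kntc1 (chr5:123820664-123821163), near Pnp2 (chr14:50981166-50981665) and in the Suclg2 intron (chr6:95515670-95516169), each with a gap of 1.58. The Hivep3-/- gaps were 1.10, 0.59 and 3.01 for those inside and 0.36, 1.71 and 1.89 for those outside, so the margin cut through regions of like behaviour.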

How the data were processed

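Data were 12 ATAC-seq libraries of 3 thymic iNKT subsets in 2 genotypes, with 2 libraries per group. The authors trimmed reads to 50 bp (Trimmomatic 0.39 in the submitters' processing notes), mapped them to mm10 with the ENCODE pipeline, merged peaks into 500-bp regions with chromVAR, counted transposase insertions and normalized them with voom. The deposited values are log2 normalized insertions per kilobase in 63309 regions, read as quantile-normalized from the values, and each region reaches 3.001 or more in a library. No read counts were used, so depth is unknown, and low values in steps limit precision there.

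Coordinates are 1-based on GRCm38.p6 with GENCODE vM21 genes, and promoters are within 1000 bp of a start. The 6 Hivep3-/- libraries were fitted in limma 3.58.1 (R 4.3.3) with 3 group means, a variance trend, 3 residual and 5.872 prior degrees of freedom and no filter, and p was adjusted over all regions. The script was tested on simulated data. Python 3.11.15, pandas 2.3.3, numpy 2.4.6, statsmodels 0.14.6 and matplotlib 3.10.9 were used. The regions, gene lists and motifs were chosen with earlier results of these data known. Regions named were the 8 with the largest C57BL/6 gap, the 5 largest and 5 smallest Hivep3-/- gaps, the region with the largest gap at each list gene and at the 8 genes with most regions, and 3 on either side of the margin. Subsets with the same replicate number and genotype were taken from the titles to share a mouse or pool, and their deviations from group means correlated by 0.167, 0.120 and 0.162 in C57BL/6 and 0.151, 0.140 and 0.127 in Hivep3-/- cells. Alternatives were other normalizations, pseudocounts, filters, thresholds, a replicate block and leaving out each library. Columns of all 12 libraries were used. RNA data of the study were not analysed here.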

Additional observations from a re-analysis of the deposited data

Results flagged for a closer look

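At 2 selected regions every Hivep3-/- iNKT1 library lay above all 4 other Hivep3-/- libraries, the opposite of the order that chose them in C57BL/6 cells. The difference between genotypes was not tested. At the intergenic region chr2:11616702-11617201, 9.31 kb from Gm17490 and 25.6 kb from the Il2ra gene body, the lowest Hivep3-/- iNKT1 value was 0.39 above the highest of the others. C57BL/6 values were 1.11 and 1.50 in iNKT1, 3.69 and 3.97 in iNKT2 and 4.19 and 3.92 in iNKT17. Hivep3-/- values were 3.90 and 3.93 in iNKT1, 3.02 and 2.87 in iNKT2 and 3.51 and 3.46 in iNKT17. In limma iNKT2 was below iNKT1 by 0.97 (SE 0.19, adjusted p = 0.00267), and iNKT17 by 0.43 (adjusted p = 0.0949), both under 3-fold. At the Rapgef1 intron the lowest Hivep3-/- iNKT1 value was 0.043 above the highest of the others, iNKT2 was below iNKT1 by 1.59 (adjusted p = 0.000717), and iNKT17 was below it by 0.42 (adjusted p = 0.200), which did not pass the test.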

How the results depend on the processing

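Of 167 recomputed values, 124 stayed within 1.5 times of a count or within the replicate spread of a median. Adding 5 to the linear values moved most counts: regions called lower in Hivep3-/- iNKT1 than in iNKT2 were 1352 of all (from 5707) and 403 of the selected (from 801), those lower than in iNKT17 were 2583 (from 6239) and 363 (from 753), those lower than in both were 202, all among the 661, and 22 and 57 were called higher in iNKT2 and in iNKT17 (from 62 and 109). Adding 1 gave 530 called against both, and lost a call at Maf, Ccdc192, Ptpn13, Tesc, Ccr4, Irf4, Fyn and Kcnk10. A 2-fold threshold called 9858 and 9405 of all regions lower in iNKT1, and 161 and 184 selected regions higher in iNKT2 and in iNKT17. For calls against both subsets, and for iNKT2 against iNKT17, all regions were counted in the main setting alone. The counts of these calls under other settings thus have no background share. Keeping for the test those regions in which a group averaged 5 insertions per kilobase left 601 called against both, since 961 and 957 selected regions were tested; the calls against iNKT2 at Mtx2 and Kcnk10, against iNKT17 at Ptpn13 and Tesc, and all calls at Maf and Ccdc192 were lost.

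The number of selected regions followed the rule. A margin of 1 gave 2332, a margin of 2 gave 566 and group means gave 1648, of which 1212, 233 and 790 met the rule in Hivep3-/- cells (52.0%, 41.2% and 47.9%, beside 47.5%). Leaving out a C57BL/6 library gave 1153 to 1510, the highest without iNKT1 replicate 2, when 36.7% met the rule in Hivep3-/- cells. Chosen on replicate 1 alone, 1193 met the rule in replicate 2 and 820 and 793 in the Hivep3-/- replicates. Chosen on replicate 2 alone, 1193, 756 and 751 did. The median Hivep3-/- gap of 1.61 was 1.17, 1.88 and 1.37 under these margins and means, 1.72 with a level of 3, 1.62 after renewed quantile normalization and 1.32 to 1.61 without a C57BL/6 library. The median of Hivep3-/- minus C57BL/6 in iNKT1 was 0.17 with regions chosen on replicate 1, 0.25 with 1 added and 0.25 to 0.42 without a library. In iNKT2 it was 0.036 with regions chosen on replicate 2 and -0.013 to 0.019 without a library, and in iNKT17 -0.20 with regions chosen on either replicate. Promoters held 8.54% within 500 bp and 18.5% within 2000 bp of a start, and 40 selected regions lay within 50 kb of list genes.

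With the replicate block, the counts were 801, 753 and 661, and 62 and 109, and the block changed no other call. Without each Hivep3-/- library in turn, which assumes that a lone library varies like the other groups, 646 to 661 were called against both. Single omissions changed the calls at Ccdc192, Kcnk10, Maf, Ptpn13, Tesc, Ikzf2, Snx31 and Tpra1. The causes of these changes were not tested.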
